A study of Rattus norvegicus with 15 samples.

Results

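The 10 genes described here are core members of the necroptosis and pyroptosis machinery: Ripk1, Ripk3, Mlkl, Zbp1, Casp8, Fadd, Casp1, Gsdmd, Nlrp3 and Pycard. They were taken by gene symbol from the 20375 genes listed for the series. All 10 were found, and all 10 passed the filter on low values that left 15424 genes for testing. The study sequenced the retinas of a degeneration model given stem cell transplants. Its methods place the transplants before the sodium iodate that induced the degeneration. Expression was measured by RNA sequencing of retinas from wild type Sprague-Dawley rats, labelled as week 12 after birth and collected on day 31, with 3 libraries in each of 5 groups. NT retinas were healthy. Sham retinas came from rats given sodium iodate at 40 mg/kg, an oxidant that damages the retinal pigment epithelium, with the vehicle injected into the vitreous. MSC retinas received human Wharton's jelly mesenchymal stem cells and sodium iodate. MSCEPO retinas received such cells carrying a lentiviral construct for human erythropoietin and GFP, also with sodium iodate. DPSC retinas received cells labelled DPSC, an abbreviation the labels do not expand, and sodium iodate. Per the labels, rats with xenografts were given dexamethasone at 2 mg/kg before surgery and cyclosporin at 10 mg/kg per day after it. Whether sham rats received these drugs is not stated, so in comparisons of a cell-injected group with NT or sham the cells and the drugs cannot be told apart. The 3 cell-injected groups share the regime.

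Necroptosis is a lytic form of cell death in which the kinase RIPK1 engages the kinase RIPK3, which phosphorylates the membrane-disrupting protein MLKL. ZBP1, a sensor of Z-form nucleic acids, can reach RIPK3 without RIPK1, and caspase-8 held by the adaptor FADD cleaves the RIP kinases and restrains the pathway. Pyroptosis starts from an inflammasome: NLRP3 senses damage, the adaptor ASC (encoded by Pycard) recruits caspase-1, and caspase-1 cleaves gasdermin D (Gsdmd), whose fragment forms pores and lets interleukin-1β and interleukin-18 out. In the retina the inflammasome genes are known from microglia and macrophages, among other cells. All of these proteins are switched on by assembly, cleavage or phosphorylation, which transcript levels do not measure.

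The deposited values are rlog values, a regularized log2 scale that pulls low or noisy genes towards their mean. A difference of 1 is a fold change of 2 on that scale, and fold changes of low genes are understated. The values are not per unit of gene length, so levels were compared between libraries and never between genes. With no read counts in the files, sequencing depth could not be given. The tissue label was checked against markers. The rod genes Gnat1 and Sag averaged 16.39 and 15.89 over the 15 libraries, and Muller glia genes such as Glul averaged 15.54. Lens crystallins were also present and uneven: Cryaa ranged from 10.73 to 18.21. Over all 20375 listed genes, before the filter, each NT and sham library lay nearest to a library of its own group. By contrast, MSC replicates 2 and 3 and all MSCEPO and DPSC libraries lay nearest to a library of another group. MSC replicate 1 and MSCEPO replicate 3 stood farthest from their own groups, with mean distances of 73.3 and 91.0. NT and sham libraries lay at 29.9 to 35.3. The other cell-injected libraries lay at 51.7 to 68.9, so MSC replicate 1 was only a little beyond DPSC replicate 2, at 68.9. The main counts below are also given without MSC replicate 1 and MSCEPO replicate 3. Where such a count has no share of all tested genes beside it, it describes only the genes counted. The study's methods give 3 samples per group without saying that each came from its own rat, and they do not describe DPSC. P-values measure the spread between these libraries, which may be in part technical.

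RefSeq promoter windows, from 250 bases before to 50 bases after the gene start on build GRCr8, were held for 7 of the 10 genes. Zbp1, Casp8 and Gsdmd had none. The windows were searched on both strands for 5 short motifs of factors active in inflammation: the interferon response core GAAANNGAAA, the STAT core TTCNNNGAA, the NF-kappaB core GGGANNNTCC, the PU.1 motif GAGGAAGT and the AP-1 motif TGANTCA. Only the 3 windows with a match are shown. Their genes were higher in MSC than in NT below by adjusted p, but so were Pycard, Mlkl and Ripk1, whose windows held no match. Capitals mark the match and all other bases are in lower case.
Casp1, chr8:10872580-10872879, plus strand: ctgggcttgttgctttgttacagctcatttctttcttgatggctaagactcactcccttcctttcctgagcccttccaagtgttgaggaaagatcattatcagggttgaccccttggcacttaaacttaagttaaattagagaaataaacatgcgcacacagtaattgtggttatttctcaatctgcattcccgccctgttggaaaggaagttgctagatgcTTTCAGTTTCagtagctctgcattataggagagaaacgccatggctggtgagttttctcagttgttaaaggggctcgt
Nlrp3, chr10:44827848-44828147, plus strand: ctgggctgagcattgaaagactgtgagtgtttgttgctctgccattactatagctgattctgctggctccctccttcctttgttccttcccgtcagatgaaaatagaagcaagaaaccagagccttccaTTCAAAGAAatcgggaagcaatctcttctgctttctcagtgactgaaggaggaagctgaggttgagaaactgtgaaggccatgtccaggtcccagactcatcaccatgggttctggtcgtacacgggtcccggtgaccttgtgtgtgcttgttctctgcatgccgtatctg
Ripk3, chr15:33261976-33262275, minus strand: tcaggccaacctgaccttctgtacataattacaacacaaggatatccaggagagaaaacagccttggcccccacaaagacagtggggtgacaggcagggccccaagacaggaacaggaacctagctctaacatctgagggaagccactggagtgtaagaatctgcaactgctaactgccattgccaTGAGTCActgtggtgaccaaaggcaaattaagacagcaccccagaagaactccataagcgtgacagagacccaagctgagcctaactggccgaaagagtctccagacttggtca
The capitals in the Casp1 window are a reverse-strand match to the interferon response core, which 3.92% of all 33469 windows hold. Those in the Nlrp3 window match the STAT core, held by 8.87% of windows, and those in the Ripk3 window match the AP-1 motif, held by 7.33%. Neither the NF-kappaB core (4.09% of windows) nor the PU.1 motif (2.42%) was found in the 7 windows. The windows of Ripk1, Mlkl, Fadd and Pycard held none of the 5 motifs. These are letter matches in a short window and say nothing of whether a factor binds there.

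NT had the lowest mean and MSC the highest for all 10 genes. Sham came second lowest for 7 of the 10, DPSC for Zbp1 and Pycard, and MSCEPO for Fadd. Relative to the NT mean, the 10 genes together stood 0.47 ± 0.10 (SD, n = 3) higher in sham, 1.27 ± 0.60 in MSC, 0.85 ± 0.24 in MSCEPO and 0.56 ± 0.36 in DPSC, on the log2 scale. MSC replicate 1 was the highest of all 15 libraries for all 10 genes, with a mean shift of 1.92 against 1.17 and 0.73 in the other MSC libraries. MSCEPO replicate 3 was the lowest of its group for 9 genes, and DPSC replicate 2 the highest of its group for 9. Neighbouring groups in the order of means rarely separated. The libraries of NT and the next group up did not overlap for Ripk3, Casp8, Casp1, Gsdmd, Nlrp3 and Pycard. Pycard also separated sham from MSCEPO. All other neighbours overlapped.

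**Figure D1:**
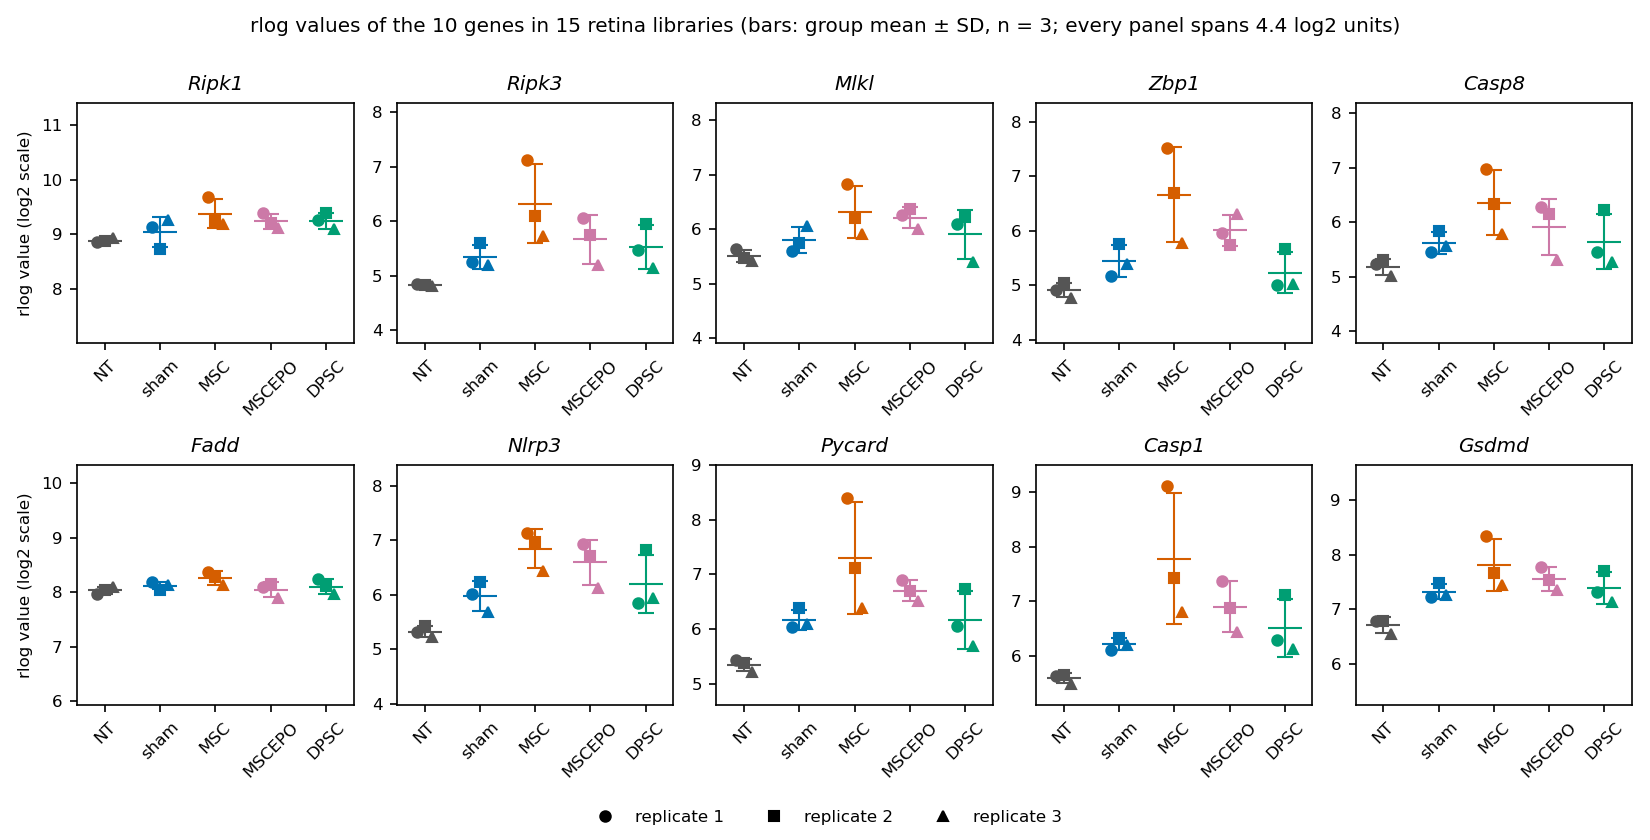
rlog values (log2 scale, y axis) of the 10 genes in NT, sham, MSC, MSCEPO and DPSC retinas (x axis), with 1 point per library and bars for the group mean ± SD, n = 3. The NT mean is lowest and MSC replicate 1 (orange circle) highest in every panel, and Fadd spans the smallest range of group means, 0.22.

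The inflammasome genes included those with the largest differences, Casp1 and Pycard. Casp1, the protease that activates interleukin-1β, interleukin-18 and gasdermin D, read 5.64, 5.65 and 5.49 in NT (rlog, replicates 1, 2 and 3) and 6.11, 6.33 and 6.21 in sham. It read 9.12, 7.42 and 6.81 in MSC, 7.38, 6.89 and 6.44 in MSCEPO, and 6.30, 7.12 and 6.13 in DPSC. Every library given sodium iodate was above every NT library, and MSC replicate 1 stood well above the other MSC libraries. Against NT, Casp1 was higher by 2.19 ± 0.46 (SE) in MSC, a 4.57-fold change on the rlog scale, with an adjusted p of 0.00719 in limma's moderated test. Without MSC replicate 1 the difference was 1.53, with an adjusted p of 0.0103. In MSCEPO it was 1.31 ± 0.46 (adjusted p = 0.0866 in limma), which missed the threshold. Casp4, a neighbouring caspase gene, was read separately and is given with the other caspases below.

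Pycard encodes ASC, the adaptor that joins the sensor to caspase-1. Its rlog values were 5.43, 5.37 and 5.21 in NT, 6.04, 6.38 and 6.08 in sham, 8.41, 7.12 and 6.38 in MSC, 6.90, 6.70 and 6.51 in MSCEPO, and 6.05, 6.74 and 5.69 in DPSC. NT lay below all other libraries, and MSCEPO lay above sham without overlap. Pycard was higher than in NT by 1.96 ± 0.39 (SE) in MSC (adjusted p = 0.00604, limma) and by 1.36 ± 0.39 in MSCEPO (adjusted p = 0.0417, limma). The MSCEPO call was lost in 12 of 25 alternatives, among them the removal of any NT or any sham library.

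Nlrp3, the sensor, read 5.31, 5.43 and 5.23 in NT and 6.01, 6.24 and 5.69 in sham. In the cell-injected groups it read 7.13, 6.97 and 6.43 in MSC, 6.93, 6.72 and 6.13 in MSCEPO, and 5.84, 6.82 and 5.94 in DPSC. NT was again below every other library, and all 3 MSC values exceeded the highest sham value. The gene had the smallest adjusted p of the 10 in MSC against NT, 0.00391 in limma, for a difference of 1.52 ± 0.28 (SE). It was also called in MSCEPO, with 1.27 ± 0.28 and an adjusted p of 0.0118 in limma. That call was lost in 1 of 25 alternatives, without NT replicate 3 (adjusted p = 0.0522).

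Gsdmd, the pore former, read 6.79, 6.80 and 6.54 in NT, 7.23, 7.48 and 7.26 in sham, 8.35, 7.66 and 7.44 in MSC, 7.78, 7.54 and 7.35 in MSCEPO, and 7.32, 7.71 and 7.14 in DPSC. It too separated NT from all other libraries, while the 4 sodium iodate groups overlapped. The difference from NT was 1.11 ± 0.22 (SE) in MSC (adjusted p = 0.00548, limma). In MSCEPO it was 0.85 ± 0.22 (adjusted p = 0.0254, limma), which passed the adjusted p but not the fold change threshold.

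Of the kinase and pore genes of necroptosis, Ripk3 differed most. Ripk3, whose kinase activity is the step that commits a cell to necroptosis, read 4.85, 4.83 and 4.81 in NT. It read 5.24, 5.59 and 5.20 in sham, 7.13, 6.10 and 5.73 in MSC, 6.06, 5.75 and 5.19 in MSCEPO, and 5.48, 5.95 and 5.14 in DPSC. The NT libraries lay close together and all others lay above them. MSC was higher than NT by 1.49 ± 0.32 (SE), with an adjusted p of 0.00848 in limma.

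Mlkl, the executioner of the pathway, covered a narrower range. It read 5.64, 5.47 and 5.43 in NT, 5.61, 5.75 and 6.06 in sham, 6.84, 6.20 and 5.91 in MSC, 6.26, 6.38 and 6.0 in MSCEPO, and 6.09, 6.23 and 5.40 in DPSC. Sham and DPSC overlapped NT, whereas MSC and MSCEPO did not. The difference between MSC and NT was 0.80 ± 0.25 (SE, adjusted p = 0.0412, limma), a call that held in 11 of 25 alternatives and was lost without MSC replicate 1 (adjusted p = 0.156).

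Ripk1, which serves both survival and death signalling downstream of TNF receptors, moved less. NT libraries read 8.86, 8.87 and 8.93 for Ripk1, sham libraries 9.14, 8.74 and 9.27, MSC libraries 9.68, 9.25 and 9.19, MSCEPO libraries 9.39, 9.21 and 9.11, and DPSC libraries 9.27, 9.38 and 9.09. Sham replicate 2 lay below all NT libraries, and the 3 cell-injected groups lay above NT. Its difference in MSC against NT, 0.49 ± 0.16 (SE), had an adjusted p of 0.0470 in limma, which held in 8 of 25 alternatives and was 0.177 without MSC replicate 1.

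Zbp1 encodes the nucleic acid sensor and is itself an interferon-inducible gene. Its rlog values were 4.92, 5.04 and 4.78 in NT, 5.18, 5.76 and 5.40 in sham, and 7.52, 6.69 and 5.77 in MSC. MSCEPO libraries read 5.97, 5.74 and 6.32, and DPSC libraries 5.01, 5.67 and 5.03. Zbp1 was the only one of the 10 genes for which MSCEPO replicate 3 was the highest of its group. DPSC overlapped NT, and all MSC values exceeded sham, MSC replicate 3 only just. MSC was higher than NT by 1.75 ± 0.35 (SE), a 3.36-fold change on the rlog scale (adjusted p = 0.00566, limma). In MSCEPO the difference of 1.097 ± 0.35 missed the threshold (adjusted p = 0.0587, limma).

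Casp8 and Fadd, the restraining pair, did not behave alike. Casp8 read 5.24, 5.30 and 5.01 in NT, 5.46, 5.84 and 5.56 in sham, 6.97, 6.33 and 5.78 in MSC, 6.28, 6.15 and 5.32 in MSCEPO, and 5.45, 6.22 and 5.27 in DPSC. Sham, MSC and MSCEPO lay above NT, MSCEPO replicate 3 only just, and DPSC overlapped it. MSC against NT gave 1.18 ± 0.32 (SE, adjusted p = 0.0260, limma), but the call was lost without MSC replicate 1 (adjusted p = 0.104), without MSC replicate 2 and without any 1 of the NT libraries. Fadd read 7.96, 8.05 and 8.10 in NT, 8.18, 8.05 and 8.13 in sham, 8.38, 8.27 and 8.13 in MSC, 8.10, 8.15 and 7.89 in MSCEPO, and 8.24, 8.11 and 7.96 in DPSC. Its largest difference from NT was 0.22 ± 0.11 in MSC (adjusted p = 0.190, limma, 95% interval −0.01 to 0.46). Whether the change of Casp8 differed from that of Fadd was not tested.

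The comparison of sham with NT asks what sodium iodate did without cells, although sham eyes also had a vehicle injection, which cannot be told apart from the sodium iodate. All 10 genes had a higher mean in sham, with a median difference of 0.52 against 0.0047 over all tested genes, and a range from 0.08 for Fadd to 0.83 for Pycard. For 7 of the 10, the sham libraries lay wholly above the NT libraries, where 16.6% of all tested genes did so. In the fit of all 15 libraries, limma called 0 of the 10, with or without the fold change threshold (background 0.266% and 0.558% of tested genes higher), and the adjusted p-values ran from 0.250 to 0.865. At an unadjusted p under 0.05 it gave 2, Gsdmd and Nlrp3 (background 6.29%). That fit shares 1 estimate of the spread over all groups, and the cell-injected groups were the most variable. In a fit of the 6 NT and sham libraries alone, 5 genes passed the adjusted p: Pycard (0.00829), Casp1 (0.0112), Gsdmd (0.0210), Nlrp3 (0.0322) and Ripk3 (0.0337), where 5.1% of tested genes did. None of them reached the fold change threshold. The sham calls therefore differed between the fit of all 15 libraries and the fit of the 6. The 2 fits also differed in the genes that passed the filter, 15424 and 15382. Why the calls differed was not tested.

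MSC against NT was the comparison with the most calls among the 10 genes. By adjusted p and fold change together, limma called 7 of 10 higher: Ripk3, Zbp1, Casp8, Casp1, Gsdmd, Nlrp3 and Pycard (background 5.71%). By adjusted p alone it called 9, Ripk1 and Mlkl included (background 11%). Only Fadd was not called. All 10 separated without overlap (background 22.9%), and the median difference was 1.33. Without MSC replicate 1, 5 genes passed both thresholds and the median was 0.98. Adjusted p-values stayed under the threshold in all 25 alternatives for Ripk3, Zbp1, Casp1, Gsdmd, Nlrp3 and Pycard, with the highest at 0.0418, for Casp1.

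MSCEPO against NT gave 2 calls, Nlrp3 and Pycard (background 2.33%), and 3 by adjusted p alone with Gsdmd added (background 5.83%). The median difference was 0.84, and 9 of 10 genes, all but Fadd, separated without overlap (background 16.5%). The number called was unsteady. It was 0 without NT replicate 3, 4 without MSCEPO replicate 3 (Ripk3, Casp8, Nlrp3 and Pycard), 4 without MSC replicate 1 or MSC replicate 3, 1 without any 1 of NT replicates 1 and 2, the sham libraries, MSC replicate 2, MSCEPO replicates 1 and 2, and DPSC replicate 1, and 5 without both MSC replicate 1 and MSCEPO replicate 3. The last alternative was chosen after seeing the data.

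DPSC against NT gave 0 calls in limma by either rule (background 0.525% and 1.43%). Before adjustment 3 had a p under 0.05, Ripk1, Gsdmd and Nlrp3 (background 8.91%). The median difference was 0.57, and 6 of 10 genes separated (background 16%). By adjusted p alone, 1 gene was called without MSC replicate 1 (Gsdmd), 4 without both MSC replicate 1 and MSCEPO replicate 3 (Ripk3, Casp1, Gsdmd and Nlrp3), and 8 with array weights, where 21.6% of tested genes were higher. The 4 comparisons with NT share the same 3 NT libraries, so their likeness is not independent.

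**Figure D2:**
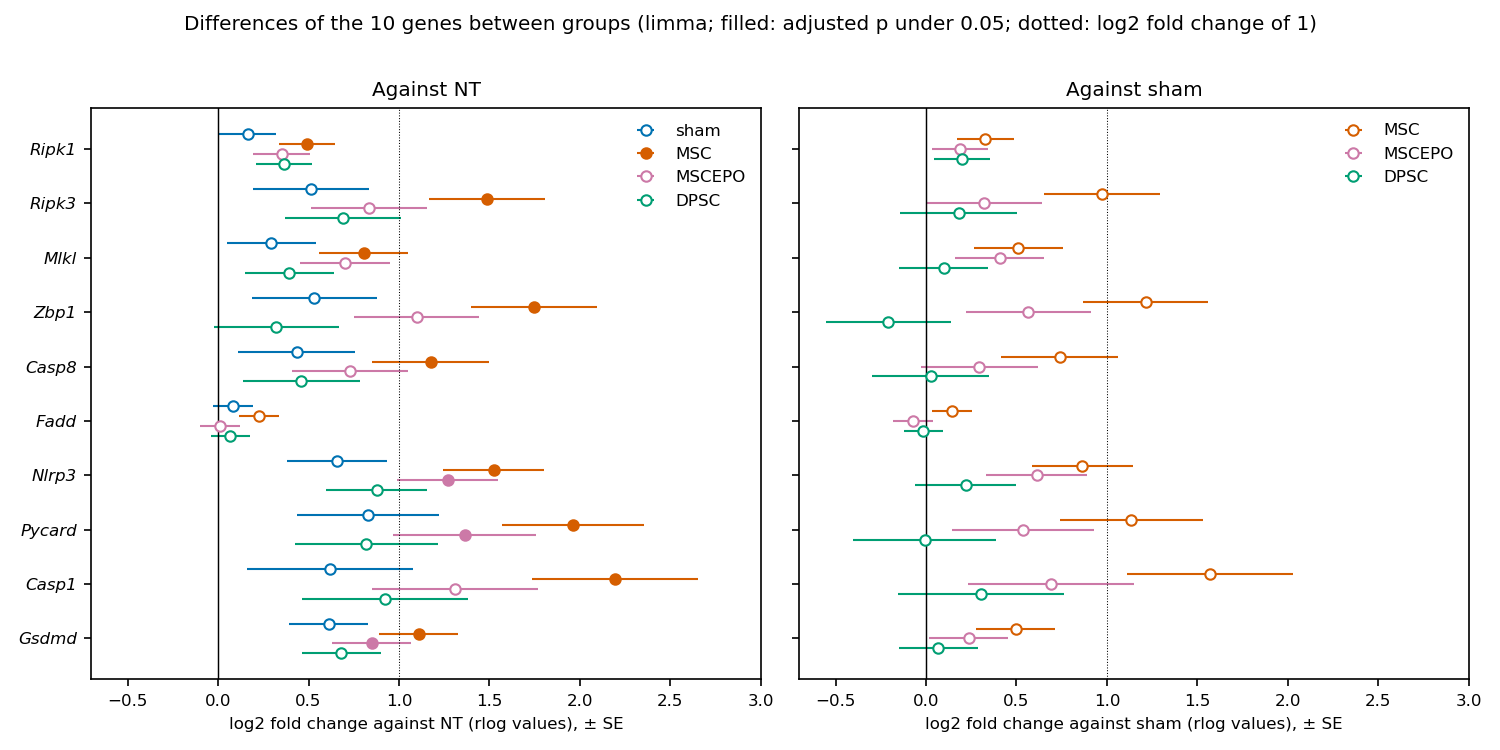
log2 fold change of each gene against NT (left) and against sham (right) on the x axis, with the SE of the limma fit, for sham (blue), MSC (orange), MSCEPO (pink) and DPSC (green). Filled points have an adjusted p under 0.05: 9 in MSC and 3 in MSCEPO against NT, and none against sham.

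The comparisons with sham ask what the injected cells, together with any drugs that sham rats did not receive, added. MSC was higher than sham for all 10 genes, with a median of 0.80 and a range from 0.14 for Fadd to 1.57 ± 0.46 (SE) for Casp1. None was called in limma (lowest adjusted p = 0.148, for Zbp1), and 0% of all tested genes were. Before adjustment 7 of 10 had a p under 0.05 (background 9.49%). For 4 genes, Ripk3, Zbp1, Casp1 and Nlrp3, the MSC libraries lay wholly above sham (background 13.1%). Without MSC replicate 3, the lowest MSC library of the 10 genes together, 4 genes were called, where 3.38% of tested genes were: Zbp1 at 1.66 (adjusted p = 0.0160), Casp1 at 2.06 (0.0254), Pycard at 1.60 (0.0281) and Ripk3 at 1.27 (0.0453). Without MSC replicate 1 limma called 0, with 3 at an unadjusted p under 0.05, and Casp1 stood at 0.91 (adjusted p = 0.427).

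MSCEPO stood above sham for 9 of 10 genes, with Fadd at −0.07, and the median was 0.37. Limma called 0 of 10 (background 0%), and 1 gene, Nlrp3 at 0.61 ± 0.28 (SE), had an unadjusted p under 0.05 (background 3.19%). With array weights 6 passed the adjusted p, where 15.9% of tested genes did. Without both MSC replicate 1 and MSCEPO replicate 3, 0 were called and 6 had a p under 0.05 before adjustment. Casp1 and Pycard separated without overlap (background 7.44%). DPSC differed least from sham. Its median difference was 0.08 and 7 of 10 genes had a higher mean, but the median was −0.08 without DPSC replicate 2 and 0.25 without DPSC replicate 3, and 7 genes changed sign in at least 1 alternative. None was called, none had an unadjusted p under 0.05 (background 0.985%), and none separated (background 4.75%). The 95% interval of Casp1 in DPSC against sham, −0.69 to 1.30, still allowed a difference of either sign. Over the 3 cell-injected groups together, weighted equally, 0 genes were called against sham and 2, Casp1 at 0.85 and Nlrp3 at 0.56, had an unadjusted p under 0.05 (background 5.8%).

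The cell-injected groups were also compared with each other. MSC exceeded MSCEPO for all 10 genes, with a median of 0.35, 0 calls and 0 at an unadjusted p under 0.05. At that p in limma, 436 of the 15424 tested genes were higher in MSC. The largest difference, 0.88 for Casp1, had a 95% interval of −0.11 to 1.88 and was −0.01 without both MSC replicate 1 and MSCEPO replicate 3. The median was 0.13 without MSC replicate 1, 0.15 without MSCEPO replicate 3, 0.60 without MSC replicate 3 and −0.06 without both, and 7 of the 10 genes changed sign in at least 1 alternative. DPSC was lower than MSC for all 10 genes, with a median of −0.68. None was called, while 6 were lower at an unadjusted p under 0.05 (background 5.78%): Zbp1 at −1.42, Casp1 at −1.27, Pycard at −1.14, Ripk3 at −0.80, Casp8 at −0.71 and Nlrp3 at −0.65. Without MSC replicate 1 the 6 became 1 and the median was −0.40, and without DPSC replicate 3 the 6 also became 1. Without MSC replicate 3, 8 were lower before adjustment and Zbp1 was called at −1.87 (adjusted p = 0.0496, limma). The shares of all tested genes in these fits without a library are not given, so these counts describe the 10 genes alone. DPSC against MSCEPO gave 0 calls and 1 gene at an unadjusted p under 0.05, Zbp1 at −0.77 with a 95% interval of −1.52 to −0.03. At that p in limma, 139 of the 15424 tested genes were lower in DPSC.

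The other pathway genes were read from lists that leave out the 10. Among death receptors, ligands and viral RNA sensors upstream of necroptosis, 10 of 13 listed genes were tested. In sham against NT 1 of the 10 passed the adjusted p alone. It was Tnfrsf1a, the main receptor for TNF, at 0.93 ± 0.19 (SE, adjusted p = 0.0466, limma). In MSC against NT 6 passed, all higher, among them Fas, a death receptor, at 1.46 (adjusted p = 0.00237) and Eif2ak2, the double-stranded RNA kinase PKR, at 1.31 (adjusted p = 0.00486). When MSC replicate 1 was left out, 3 of the 10 passed, Fas and Eif2ak2 among them. Tnf itself fell below the filter.

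Of the 19 tested regulators of the TNF receptor complexes, 3 were higher and 1 lower in MSC than in NT by adjusted p alone, where 11% of all tested genes were higher and 6.37% lower, and the median was 0.03. The higher genes were Birc3, an inhibitor of apoptosis protein (1.87, adjusted p = 0.0117), Cflar, the caspase-8 partner c-FLIP (1.05, adjusted p = 0.0164) and Tradd (0.53, adjusted p = 0.0400). Of these, Birc3 alone passed without MSC replicate 1 (1.25, adjusted p = 0.0196). The lower gene was Tnfaip3, which encodes the ubiquitin-editing brake A20, at −1.03 (adjusted p = 0.0186). Tnfaip3 fell in all 3 cell-injected groups, by 1.61 in MSCEPO (adjusted p = 0.00229) and by 1.17 in DPSC (adjusted p = 0.0348), and read −0.71 in sham (adjusted p = 0.270). Xiap, another inhibitor of apoptosis protein, fell in MSCEPO by 1.54 (adjusted p = 0.0147), but its MSCEPO libraries were uneven. Its rlog means were 12.05 ± 0.07 (SD, n = 3) in NT, 11.26 ± 0.29 in sham and 11.10 ± 0.10 in MSC. They were 10.51 ± 1.02 in MSCEPO and 11.15 ± 0.09 in DPSC, so every group given sodium iodate had a lower mean than NT. No gene of the downstream and membrane list, 8 of 8 tested, was called in sham, MSC, MSCEPO or DPSC against NT, and limma gave 0 to 1 higher and 0 to 3 lower without adjustment.

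Inflammasome sensors and adaptors other than the 10 had their highest mean level in MSC. Of 10 tested in MSC against NT, 6 passed the adjusted p alone, all higher, with a list median of 1.19. P2rx7, the ATP-gated channel upstream of NLRP3, stood at 1.46 (adjusted p = 0.00367), Mefv, which encodes pyrin, at 1.60 (adjusted p = 0.0112), and Aim2, the sensor of cytosolic DNA, at 1.17 (adjusted p = 0.0231). Of 6 other caspase and gasdermin genes, 3 passed the adjusted p in MSC and 3 in MSCEPO against NT, all higher. Casp4, the caspase of the non-canonical inflammasome, read 5.63 ± 0.25 (SD, n = 3) in NT and rose by 1.94 in MSC (adjusted p = 0.00421) and by 1.37 in MSCEPO (adjusted p = 0.0278). Of 7 tested cytokine and inhibitor genes, 6 rose in MSC by adjusted p alone. Il18 rose by 1.21 (adjusted p = 0.0183) and Il1b by 1.03 (adjusted p = 0.0414), alongside the antagonists Il1rn (1.11, adjusted p = 0.0420) and Il18bp (0.66, adjusted p = 0.0176). The counts by adjusted p in MSC against NT without MSC replicate 1 were 4 of 10 sensors and adaptors, 2 of 6 caspases and gasdermins and 3 of 7 cytokines and inhibitors. P2rx7, Mefv, Aim2, Casp4 and Il1b still passed, whereas Il18 (adjusted p = 0.0575), Il1rn (adjusted p = 0.0933) and Il18bp (adjusted p = 0.0521) did not. In sham against NT, 0 genes of these 3 pyroptosis lists were called by limma, and 2, 1 and 1 had an unadjusted p under 0.05. Il1r1, the receptor of interleukin-1, stood at 1.23 (adjusted p = 0.117).

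**Figure D3:**
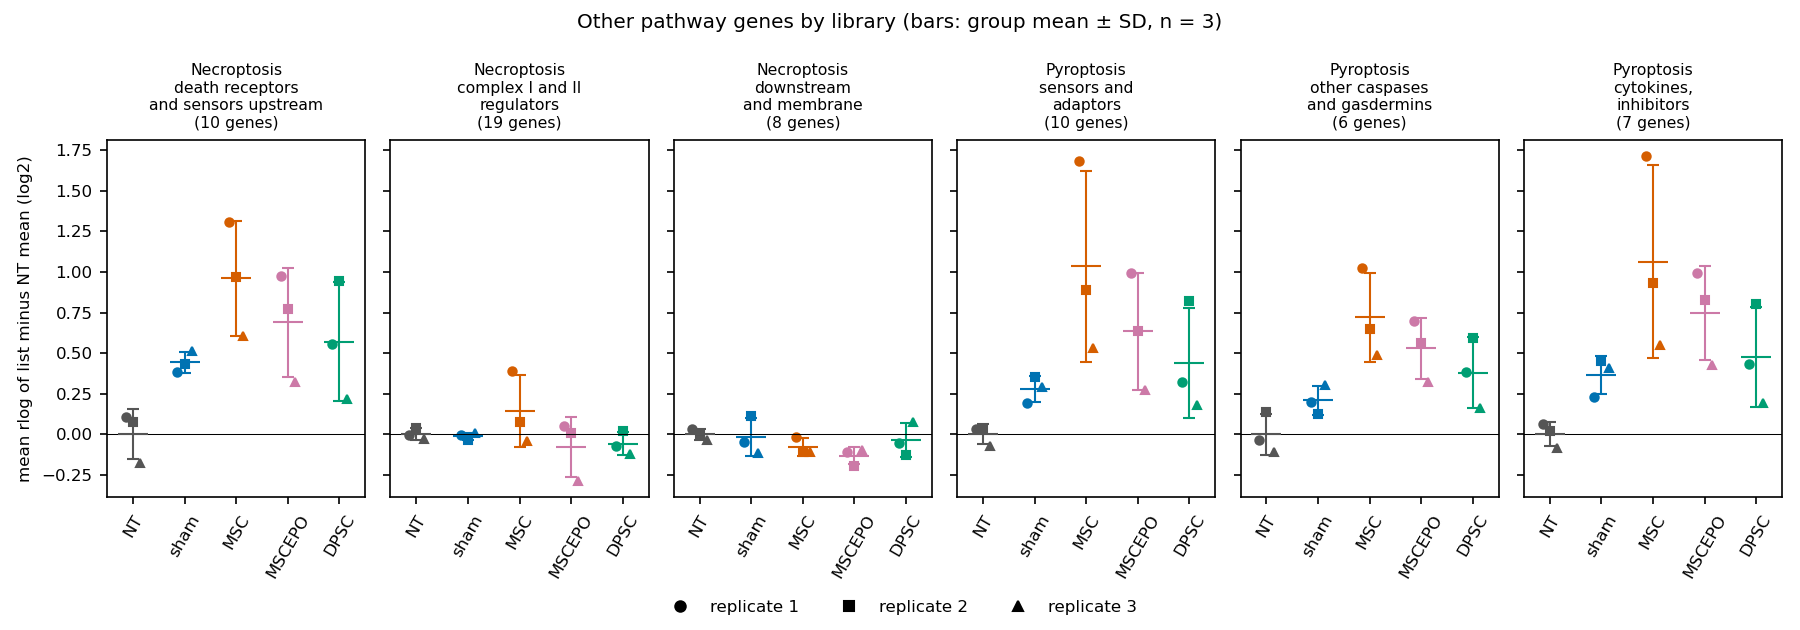
Mean rlog of 6 lists of other necroptosis and pyroptosis genes, relative to the NT mean (log2, y axis), by group, with 1 point per library and bars for the group mean ± SD, n = 3. The upstream receptor and the 3 pyroptosis lists are highest in MSC, at 0.72 to 1.06, while the complex regulators and the downstream list have group means between −0.13 and 0.14.

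The mean levels of the immune cell lists were highest in MSC, like those of the 10 genes. The list of 21 microglia and macrophage genes stood 0.75 to 1.28 above the NT mean in sham, 1.55 to 3.14 in MSC, 1.33 to 2.07 in MSCEPO and 0.82 to 1.89 in DPSC, and 17 of the 21 were called higher in MSC against NT and 15 in MSCEPO. The 16 tested T and NK cell genes stood −0.02 to 0.03 from NT in sham and 0.58 to 2.54 in MSC. They stood 0.23 to 0.85 from NT in MSCEPO and 0.02 to 0.67 in DPSC. Of the 16, 9 were called higher in MSC. In MSCEPO 0 were called higher and 1 was called lower, and in DPSC 0 were called. The 5 tested B cell genes spanned 1.39 to 4.19 in MSC and −0.10 to −0.03 in sham. Of the 5, 4 were called higher in MSC, 0 in MSCEPO and 0 in DPSC. The calls in MSC without MSC replicate 1 were 16 of 21 microglia and macrophage, 4 of 16 T and NK cell and 2 of 5 B cell genes. Of 9 listed neutrophil genes, 7 were below the filter. The 11 tested rod genes moved the other way, with −0.82 to −0.63 in sham, −1.43 to −1.23 in MSC, −1.69 to −1.22 in MSCEPO and −1.49 to −0.71 in DPSC. Their lowest mean was in MSCEPO, while the 10 genes were highest in MSC. In these bulk samples, more cells of a type and more RNA per cell cannot be told apart, nor can the share of the rat's immune cells in the levels of the 10 genes. The part of these cells in the differences above was not tested.

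Over the 15 libraries, the correlation with the microglia and macrophage list was highest for Gsdmd (r = 0.98), Pycard (r = 0.97) and Nlrp3 (r = 0.96) and lowest for Fadd (r = 0.56) and Ripk1 (r = 0.78). It was not particular to that list. With the T and NK cell list, r for these genes in the same order was 0.83, 0.91, 0.77, 0.68 and 0.78. With the interferon-stimulated list it was 0.93, 0.92, 0.94, 0.57 and 0.75. With the rod list it was −0.81, −0.76, −0.89, −0.36 and −0.69. These are descriptions across libraries that differ by group. For values within groups, each library was set against its group mean. The r with the microglia and macrophage list was then 0.96 for Gsdmd, 0.93 for Pycard and 0.87 for Nlrp3. Casp1 (0.94), Ripk3 (0.94) and Casp8 (0.92) came above Nlrp3, and Fadd (0.42) and Ripk1 (0.54) were again lowest. MSC replicate 1, the highest library for all 10 genes, was included, and its weight in these values was not tested. The 45 pairs of the 10 genes correlated with a median r of 0.86 (0.49 to 0.98), and within groups with a median of 0.73 (0.18 to 0.97). The closest pair was Casp1 and Ripk3, at 0.98. Outside the 10, the genes whose pattern over the 15 libraries came closest to their mean were RT1-Bb, Wdfy4, Lsp1, Psmb9 and Epsti1, with r from 0.989 to 0.991. Within groups they were Cytip, Ctla2a, Rcsd1, Pltp and Cfd, with r from 0.986 to 0.990.

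**Figure D4:**
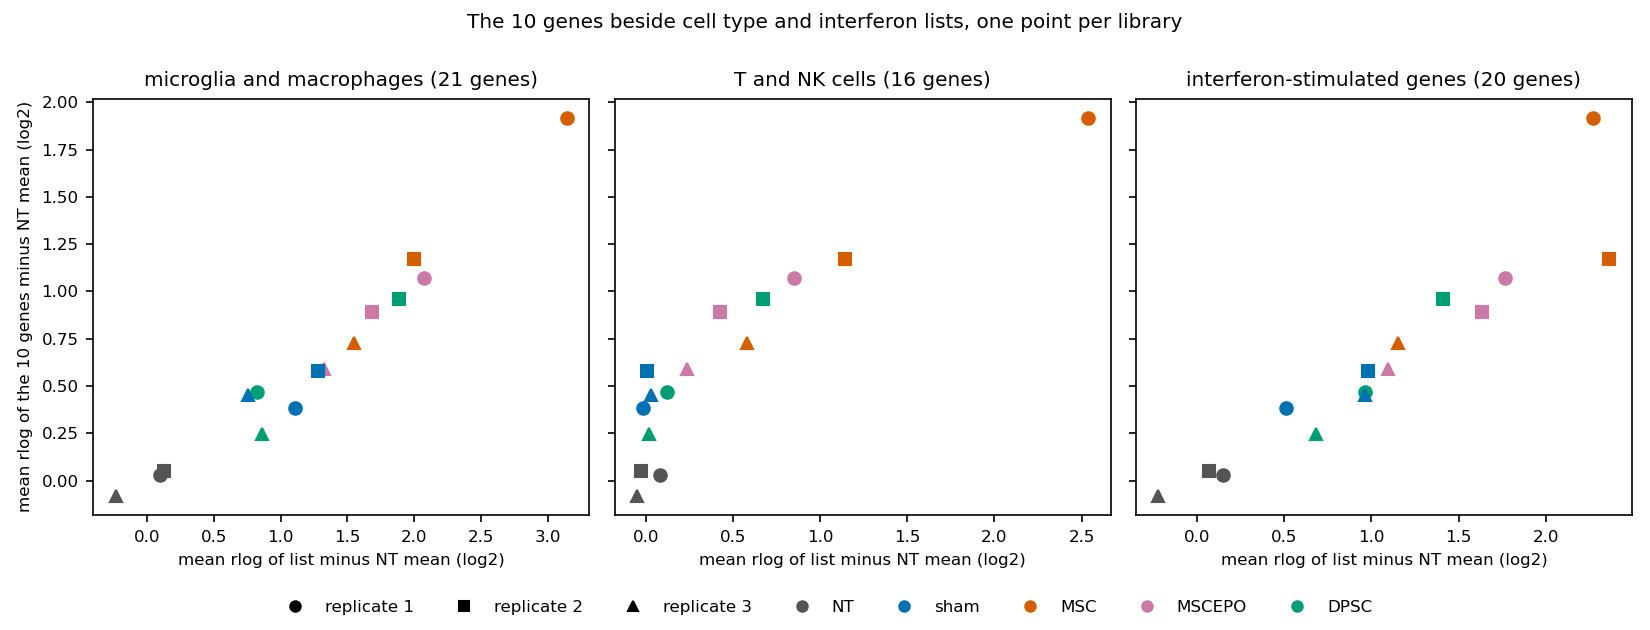
Mean shift of the 10 genes from the NT mean (log2, y axis) against that of the microglia and macrophage (21 genes), T and NK cell (16 genes) and interferon-stimulated (20 genes) lists (log2, x axes), with 1 point per library, colour for the group and shape for the replicate. Sham libraries lie at 0.39 to 0.58 on the y axis with T and NK cell values near 0, and MSC replicate 1 lies at the top right of the first 2 panels.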

How the data were processed

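Retinal mRNA was sequenced in 15 libraries, 3 in each of 5 groups taken from the labels. Per the labels and the study's methods, the authors quantified reads with Salmon 1.1.0 (k-mer length 31) on Rnor_6.0, summed them to genes with tximport and deposited DESeq2 rlog values, which are on a log2 scale. The submitters' notes give DESeq2 as version 3.2. A series table with the same 15 columns was not used, and 0 of its values differed from the single files. Depth per library is unknown from such values.

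Symbols were read from the files. Genes with a mean rlog of at least 3.32, the log2 of 10, were kept: 15424 of 20375. limma 3.58.1 in R 4.3.3 (empirical Bayes with a mean trend) was fitted to all 15 libraries with group as the only term, and p-values were adjusted by Benjamini-Hochberg over all tested genes in each of 11 comparisons. Calls needed both an adjusted p under 0.05 and a more than 2-fold change, and by adjusted p alone where stated. The script was tested on simulated data. Besides the 10, the text names genes by a rule: from each pathway list up to 4 with the smallest adjusted p in sham against NT and 4 in the mean of the cell-injected groups against sham, from cell type lists up to 3 with the highest mean, and the 5 most alike by Pearson r. The 10 genes, the lists and the tests were chosen with earlier results of these data known. Promoter windows are RefSeq's on GRCr8, a later build than the files use, and no coordinates were carried between builds. Alternatives covered the filter, the libraries fitted, the scaling, weights, the variance trend and leaving out each library.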

Additional observations from a re-analysis of the deposited data

How the results depend on the processing

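Of 281 counts of called genes under 26 settings, 262 stayed at 0 or within 1.5 times the value given, 12 fell and 7 rose. In the main fit only MSC against NT (7) and MSCEPO against NT (2) had any calls. Most of the 262 were therefore a 0 that stayed 0. Of 2043 fold changes, those of the 10 genes in 8 comparisons and of Casp1 or Zbp1 alone in the other 3, 1911 kept their direction and side of the threshold, 54 lost a call, 62 gained one and 16 changed sign. Over all 11 comparisons and all 10 genes, 58 of 2700 changed sign, 17 of them in DPSC against sham, 15 in MSC against MSCEPO and 11 in DPSC against MSCEPO, and Zbp1 was the only gene without a change of sign. For MSCEPO against NT the count of 2 became 1 without a filter, 4 with only the compared groups, 1 after quantile normalization and 5 without both MSC replicate 1 and MSCEPO replicate 3. Leaving out single libraries gave 0 to 4. Leaving out single libraries gave 0 to 4 for MSC against sham and 0 to 1 for DPSC against MSC, the highest in both without MSC replicate 3. The 16 were in Fadd, Ripk1 and Casp1. Fadd read −0.0538 in MSCEPO against NT and −0.0062 in DPSC against NT after quantile normalization, and −0.0422 to 0.0908 in MSCEPO against NT with single libraries left out. In MSCEPO against sham Fadd read 0.0010 with array weights, 0.0083 without both libraries, and −0.1248 to 0.0083 with single libraries left out. For the mean of the 3 cell-injected groups against sham Fadd read −0.0117 after quantile normalization and −0.0174 to 0.0491 with single libraries left out. In DPSC against MSC Fadd read 0.0192 with array weights, and Ripk1 0.0257 without both libraries and −0.2201 to 0.0257 with single libraries left out. Casp1 in MSC against MSCEPO, 0.88 with all libraries, read −0.0142 without both libraries. The cause of these changes was not tested. With array weights, which stopped before full convergence, adjusted p alone gave 4 genes in sham against NT, 8 in DPSC against NT, 6 in MSCEPO against sham, 2 for the mean of the cell-injected groups against sham and 5 in DPSC against MSCEPO, where all-library values were 0. Shares of all tested genes with array weights are given above for DPSC against NT and MSCEPO against sham only. The other counts with array weights describe the 10 genes alone.

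Replicate numbers did not pair the libraries: same-numbered libraries of different groups correlated at −0.44 to 0.65 in their deviations, and 6 of 15 correlated best with their own number. With the replicate number as a block, MSC against NT kept 7 called genes and MSCEPO against NT 2, and DPSC against NT had 1 gene by adjusted p alone, Nlrp3, against 0 without the block. With 3 libraries per group, no counts and a spread shared over unequal groups, a difference that missed the threshold is not shown to be absent.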

Other observations

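The interferon-stimulated list was, like the 10 genes, highest on average in MSC, but its highest library was MSC replicate 2 (2.36 above the NT mean, against 2.27 in replicate 1). Of the 20 tested genes, 1 passed the adjusted p in sham against NT, Irf9, a subunit of the transcription factor that answers type I interferon, at 0.83 ± 0.16 (SE, adjusted p = 0.0342, limma). In MSC against NT 18 of the 20 passed both thresholds, 14 did in MSCEPO and 1 in DPSC. Without MSC replicate 1, 16 did in MSC, and without both MSC replicate 1 and MSCEPO replicate 3, 17 did in MSC, 17 in MSCEPO and 5 in DPSC. Mean levels of Gbp2, a guanylate-binding protein linked to inflammasome activation, were 7.81 in NT, 9.47 in sham, 11.15 in MSC, 10.74 in MSCEPO and 9.72 in DPSC (rlog, n = 3 each). Against sham, limma called 0 of the list in MSC, and 19 of 20 were higher before adjustment (p under 0.05).

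Of the remaining retinal lists, 9 Muller glia genes had a median difference from NT of 0.34 in sham and 0.70 in MSC, with 1 and 3 called higher. The 12 genes of other retinal neurons had 0 calls against NT in any group, and limma gave 0 to 4 lower before adjustment. Of 8 retinal pigment epithelium genes, 2 were called lower in MSC and 1 in MSCEPO, and 3 in MSC without MSC replicate 1. Of 5 endothelial genes, 0 were called and 0 to 2 were higher before adjustment. The lens and cornea list varied widely within groups, from −1.08 to 2.58 within MSCEPO and −1.04 to 3.59 within DPSC.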
